A study of Mus musculus with 6 samples.

Results

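The genes described here are the tumour suppressor p53, its negative regulator, 3 of its target genes and inhibitors of cyclin-dependent kinases. Among them p53, Cdkn1a and the Cdkn2a locus are known barriers to the reprogramming of fibroblasts. The 9 genes are Trp53, Mdm2, Cdkn1a, Ccng1, Trp53inp1, Cdkn1b, Cdkn2a, Cdkn2b and Cdkn2c. They were chosen by symbol, and all 9 were found among the 19330 genes of the deposited table. RNA of 6 mouse libraries was sequenced: 2 induced pluripotent stem cell lines labelled with palmitoylcarnitine (PC iPSC 5 and PC iPSC 13), 2 normal iPSC lines (control iPSC 3 and control iPSC 7), 1 embryonic stem cell library (ESC, titled B6, source B6/blu) and 1 library of mouse embryonic fibroblasts (MEF). Palmitoylcarnitine is the carnitine ester of palmitate. The sources used here do not give its dose or timing, the reprogramming factors, the strains, or whether each line is 1 clone. Both kinds of iPSC and the ESC were grown with leukemia inhibitory factor on primary MEF feeders treated with mitomycin C, a DNA crosslinking agent, and the MEF library came from cells in serum medium.

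p53 is a transcription factor that is stabilised by DNA damage and by oncogenic signals. Mdm2 is the ubiquitin ligase that marks p53 for degradation, and it is itself a p53 target, so the pair forms a negative feedback loop. Cdkn1a (p21) and Cdkn1b (p27) belong to the Cip/Kip family, which binds complexes of cyclins with their kinases. Cdkn2a, Cdkn2b and Cdkn2c encode inhibitors of the INK4 family, which bind the kinases of the D-type cyclins. Cdkn2a also encodes p19Arf, which binds Mdm2 and so protects p53. Loss of p53, of Cdkn1a or of the Cdkn2a locus raises the yield of iPSC from fibroblasts, and mouse embryonic stem cells are known for a short G1 phase.

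On GRCm38 (mm10), with RefSeq positions, Trp53 lies on chromosome 11 from 69580348 to 69591873 and Ccng1 on the same chromosome from 40748552 to 40755309. Mdm2 lies on chromosome 10 (117688875 to 117710758), Cdkn1a on chromosome 17 (29090979 to 29100722) and Cdkn1b on chromosome 6 (134920401 to 134925525). Chromosome 4 holds the other members. Trp53inp1 spans 11156441 to 11174379, Cdkn2a 89274473 to 89294619, Cdkn2b 89306289 to 89311032 and Cdkn2c 109660876 to 109666756. All 9 are protein-coding. Cdkn2a has 2 transcripts in GENCODE with different first exons, at 89281986 to 89282192 and at 89294334 to 89294653, which share the second exon at 89276645 to 89276985. The upstream one is the first exon of p19Arf. The files give 1 count for the gene, so p16Ink4a and p19Arf were not told apart. Trp53 has a processed pseudogene, Trp53-ps (chromosome 17, 54419597 to 54421236), and in RefSeq Cdkn2b lies within the span of the noncoding gene Gm12610 (chromosome 4, 89295180 to 89518621). GENCODE gives Gm12610 a shorter span (89421848 to 89463487, plus strand), which does not reach Cdkn2b. Reads shared with either could not be separated here.

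To show where the p53 recognition sequence stands near the starts of the p53 gene and its targets, the 250 bases before each RefSeq transcript start were searched for the p53 half-site decamer, whose pattern reads the same on both strands. The transcript starts used for Ccng1 and Trp53 lie a few bases inside the gene spans given above, and distances are counted from them. Sequences are RefSeq on GRCm38.p6, read 5′ to 3′ on the gene's strand, and capitals mark the match. In Cdkn1a the window is chr17:29090729-29090978 (plus strand), in Ccng1 chr11:40755287-40755536 (minus strand), in Mdm2 chr10:117710759-117711008 (minus strand) and in Trp53 chr11:69580109-69580358 (plus strand).
Cdkn1a: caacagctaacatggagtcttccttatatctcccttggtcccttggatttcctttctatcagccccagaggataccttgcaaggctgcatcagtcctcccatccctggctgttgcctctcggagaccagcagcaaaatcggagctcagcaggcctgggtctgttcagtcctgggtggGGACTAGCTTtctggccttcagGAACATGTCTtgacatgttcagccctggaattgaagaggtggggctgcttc
Ccng1: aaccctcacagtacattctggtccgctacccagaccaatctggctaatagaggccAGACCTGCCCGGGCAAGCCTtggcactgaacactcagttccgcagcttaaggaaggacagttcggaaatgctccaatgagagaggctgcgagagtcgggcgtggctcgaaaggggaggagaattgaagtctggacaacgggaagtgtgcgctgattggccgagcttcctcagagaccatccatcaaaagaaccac
Mdm2: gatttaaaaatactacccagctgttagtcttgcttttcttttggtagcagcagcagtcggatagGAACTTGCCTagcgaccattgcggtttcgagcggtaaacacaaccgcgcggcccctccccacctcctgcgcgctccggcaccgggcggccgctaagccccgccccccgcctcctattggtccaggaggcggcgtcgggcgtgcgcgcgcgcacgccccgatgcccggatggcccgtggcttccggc
Trp53: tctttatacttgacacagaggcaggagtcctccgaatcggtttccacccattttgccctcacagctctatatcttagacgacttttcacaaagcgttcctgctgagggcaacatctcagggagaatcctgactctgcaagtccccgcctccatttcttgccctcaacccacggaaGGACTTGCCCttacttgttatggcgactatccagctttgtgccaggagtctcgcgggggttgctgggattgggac

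The Cdkn1a window held 2 exact half-sites 12 bases apart, the first beginning 73 bases before the start, which is the upstream of 2 RefSeq starts. The second half-site directly adjoined a further decamer with 1 mismatch, tgacatgttc, which is not in capitals. Of 32851 such windows across RefSeq, 0.0639% held 2 exact half-sites with at most 13 bases between them. The Ccng1 window held 2 adjoining decamers with 1 mismatch in all, beginning 195 bases before the start, and 0.505% of windows held a pair as good or better. Mdm2 and Trp53 each held 1 half-site, as did 7.13% of windows at least once. The window of the downstream RefSeq start of Cdkn1a (chr17:29093519-29093768) and the windows of Cdkn1b, Cdkn2a, Cdkn2b and Cdkn2c held none. Windows were found for 8 of the 9 members, Trp53inp1 being the exception. Sequence inside the genes, such as introns, and sequence farther upstream was not searched, so these counts do not cover sites there. A match is a description of these letters and no evidence of binding.

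Libraries held 26.51 M to 27.99 M assigned reads (M for mega), and each member had at least 80 reads in each library. Levels below are RPKM, reads scaled by gene length and library total, which allow comparison between genes. The pluripotency markers fixed for this work summed to 3995 to 5477 RPKM in iPSC and ESC. In MEF they summed to 252, with 7 of 12 listed at 0. The fibroblast markers summed to 7543 in MEF, 1178 to 2040 in the iPSC lines and 778 in ESC. Macrophage markers summed to 571 in MEF, 68.3 in ESC and 12.2 to 18.8 in iPSC. The ESC sum was uneven over the 6 markers, with a median of 2.16% of MEF and a highest of 148%. In iPSC the medians were 0.512% to 1.31% and the highest markers 20.9% to 37.2% of MEF. The part of the marked cell types in the differences from MEF and ESC was not tested. In bulk RNA, fewer cells of a type and less RNA per cell cannot be told apart.

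The most abundant of the 9 transcripts in iPSC were Cdkn1a, Ccng1 and Trp53. Cdkn1a stood at 195 ± 30.3 RPKM over the 4 lines, Ccng1 at 171 ± 23.2 and Trp53 at 138 ± 22.5 (SD, n = 4). The ranges of Cdkn1a and Ccng1 overlapped, as did those of Ccng1 and Trp53. Mdm2 (69.0 ± 9.73) and Trp53inp1 (64.9 ± 1.89) followed, and their ranges overlapped each other but not that of Trp53. Cdkn2a (38.0 ± 7.57) and Cdkn2b (28.8 ± 8.84) came next, again with overlapping ranges. Cdkn1b (11.2 ± 1.23) and Cdkn2c (1.69 ± 0.226) stood below these, each clear of its neighbours. Among all genes of the table the mean iPSC level of Cdkn1a was above that of 98.4%, and that of Cdkn2c above 42.1%.

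**Figure D1:**
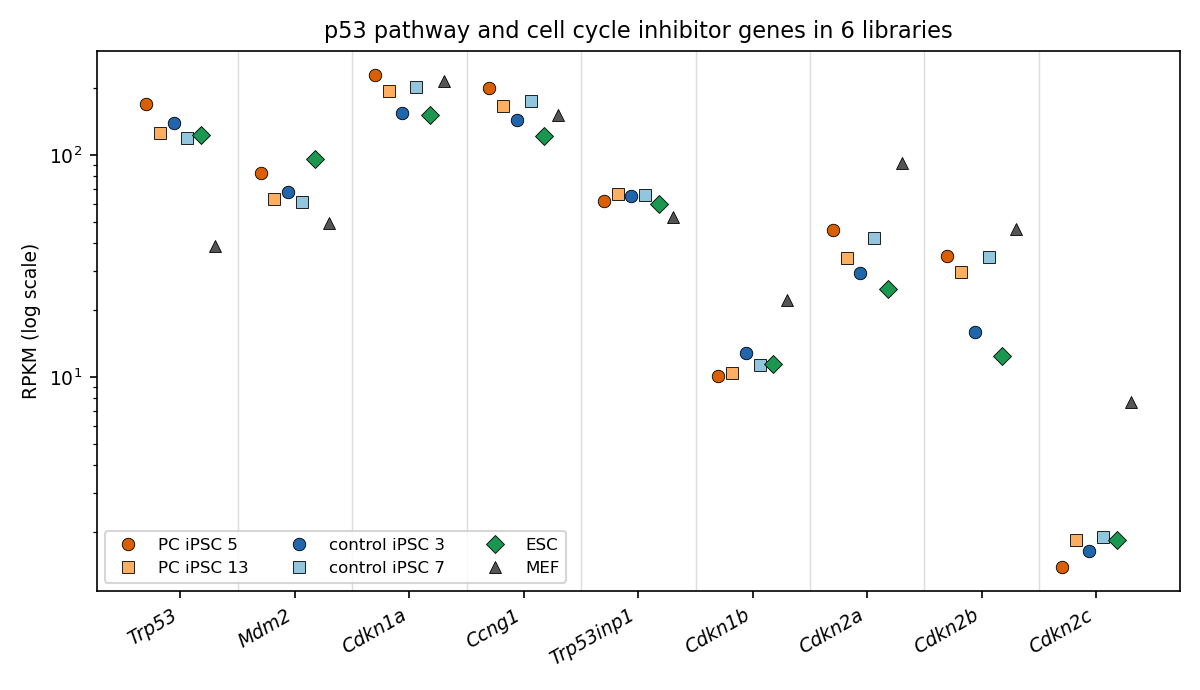
RPKM (log axis) of the 9 genes in each library; each point is 1 library. Trp53 was lowest in MEF at 38.8, while Cdkn2a, Cdkn2b, Cdkn1b and Cdkn2c were highest there, and Trp53inp1 varied least between the iPSC lines (62.2 to 66.3).

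Trp53 was higher in each pluripotent library than in MEF. It stood at 169.6 RPKM in PC iPSC 5 and 126 in PC iPSC 13, at 139.5 in control iPSC 3 and 119 in control iPSC 7, at 123 in ESC and at 38.8 in MEF. ESC lay within the range of the lines. Against MEF, Trp53 was 3.61-fold higher in iPSC (log2 fold change 1.85, SE 0.22, edgeR quasi-likelihood test, adjusted p = 0.000361). Against ESC the log2 difference was 0.12 (SE 0.19, adjusted p = 0.717), with a 95% interval from 0.791-fold to 1.49-fold.

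Mdm2, the ligase that limits p53, was highest in ESC. It stood at 83.0 and 63.4 in PC iPSC 5 and 13, at 68.0 and 61.6 in control iPSC 3 and 7, at 95.9 in ESC and at 49.2 in MEF. All 4 lines lay between MEF and ESC. Against ESC the log2 difference of iPSC was -0.52 (SE 0.17), which did not pass (edgeR adjusted p = 0.0986). Without PC iPSC 5 it was -0.63 with an adjusted p of 0.032. Against MEF the difference was 0.51 (SE 0.18, edgeR adjusted p = 0.042), and this call ended under 7 of 13 alternatives, with adjusted p from 0.00942 to 0.275 over all settings.

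Set against Trp53, Mdm2 varied little between the 4 lines. Mdm2 RPKM per Trp53 RPKM was 0.490 and 0.504 in PC iPSC 5 and 13 and 0.487 and 0.519 in control iPSC 3 and 7, a mean of 0.500 ± 0.0148 (SD, n = 4). It was 0.778 in ESC and 1.27 in MEF, both outside the range of the lines. This ratio was chosen after its values were seen and was not tested.

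**Figure D2:**
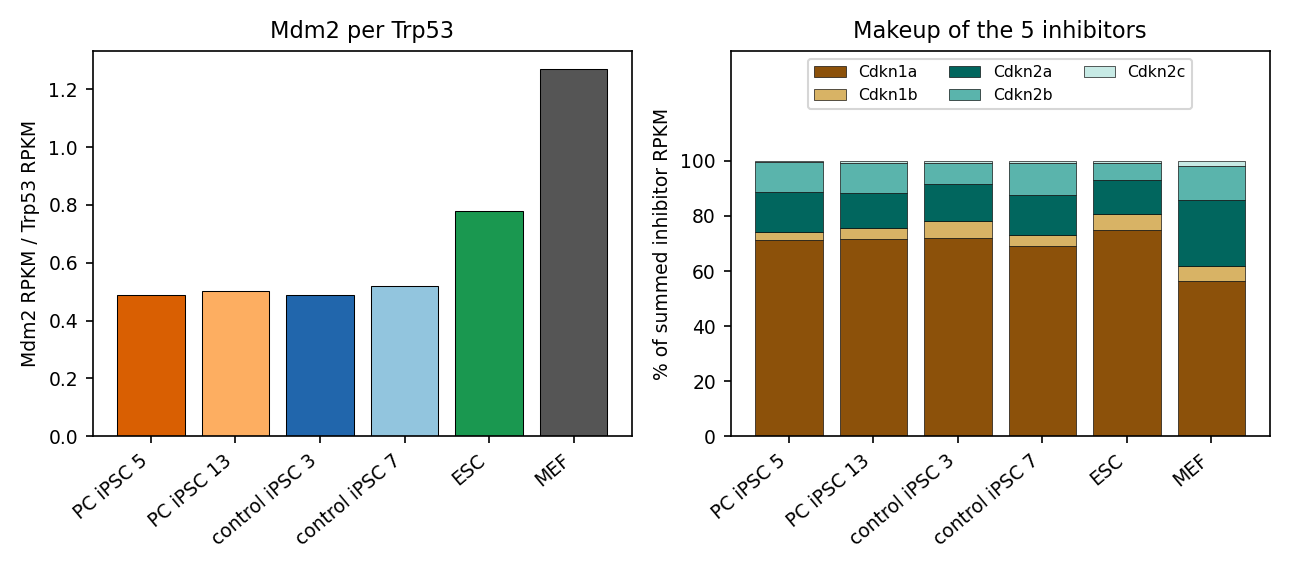
Left, the ratio of Mdm2 to Trp53 RPKM in each library (bars from 0); right, the share of each of 5 inhibitor genes in their summed RPKM. The ratio was 0.487 to 0.519 in the 4 iPSC lines, 0.778 in ESC and 1.27 in MEF, and Cdkn1a made up 69.2% to 72.1% of the inhibitors in iPSC and 56.2% in MEF.

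Of the p53 targets, Cdkn1a, the inhibitor p21, was the most abundant member and did not pass the test in any comparison. It stood at 228 and 193 in PC iPSC 5 and 13, at 155 and 203 in control iPSC 3 and 7, at 151 in ESC and at 216 in MEF. MEF lay within the range of the lines, and ESC lay just below control iPSC 3. The log2 difference from MEF was -0.14 (SE 0.19, edgeR adjusted p = 0.553), with a 95% interval from 0.661-fold to 1.25-fold, and that from ESC was 0.32 (SE 0.20, adjusted p = 0.327). The PC lines averaged 210.5 ± 24.7 and the controls 179 ± 33.7 RPKM (SD, n = 2 per group).

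Ccng1, the cyclin G induced by p53, ranked the 4 lines in the same order as Cdkn1a. Cdkn2a, Cdkn2b and the summed fibroblast markers had that order too, while Trp53 and Mdm2 did not. Ccng1 stood at 199 and 166 in PC iPSC 5 and 13, at 143 and 175 in control iPSC 3 and 7, at 122 in ESC and at 151 in MEF. All 4 lines lay above ESC, by a log2 difference of 0.44 (SE 0.19) that did not pass the test (edgeR adjusted p = 0.178). Trp53inp1, a p53-induced nuclear protein with roles in autophagy and cell death, was the steadiest member, with a coefficient of variation of 2.92% over the lines against 11% to 30.7% for the other members. Its levels were 62.2, 66.3, 65.0 and 66.1 in PC iPSC 5, PC iPSC 13, control iPSC 3 and control iPSC 7, 60.2 in ESC and 52.5 in MEF. Its log2 difference from MEF was 0.33 (SE 0.15, edgeR adjusted p = 0.0927).

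Of the 3 INK4 genes, Cdkn2a and Cdkn2c were lower in iPSC than in MEF, and Cdkn2b did not pass that test. Cdkn2a stood at 46.1 and 34.2 in PC iPSC 5 and 13, at 29.5 and 42.4 in control iPSC 3 and 7, at 25 in ESC and at 92.2 in MEF. All 4 lines lay between ESC and MEF. Against MEF the level in iPSC was 2.39-fold lower (log2 fold change -1.26, SE 0.23, edgeR adjusted p = 0.00239). Against ESC the log2 difference was 0.56 (SE 0.26, edgeR adjusted p = 0.198), and without control iPSC 3 it was 0.66 with an adjusted p of 0.0477.

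Cdkn2b, which encodes p15Ink4b beside Cdkn2a, varied most between the lines. It stood at 34.9 and 29.7 in PC iPSC 5 and 13, at 16.0 and 34.6 in control iPSC 3 and 7, at 12.4 in ESC and at 46.4 in MEF. Control iPSC 3 stood near ESC, and the remaining lines were closer to MEF. Over ESC the mean of the lines was 2.25-fold higher (log2 difference 1.17, SE 0.41), with no overlap, and this did not pass (edgeR adjusted p = 0.114). It passed by DESeq2 (1.17, adjusted p = 0.0199), without control iPSC 3 (1.37, adjusted p = 6.53e-05) and without control iPSC 7 (0.83, adjusted p = 0.00743). The difference from MEF was -0.68 (SE 0.35, edgeR adjusted p = 0.127), and without control iPSC 7 it was -1.01 with an adjusted p of 1.68e-05.

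Cdkn2c, which encodes p18Ink4c, had the lowest level and the largest difference from MEF. It stood at 1.40 and 1.84 in PC iPSC 5 and 13, at 1.65 and 1.90 in control iPSC 3 and 7, at 1.84 in ESC and at 7.70 in MEF. These values rest on 80 to 106 reads in the pluripotent libraries and 445 in MEF. The level in iPSC was 4.47-fold lower than in MEF (log2 fold change -2.16, SE 0.28, edgeR adjusted p = 0.000523). ESC lay within the range of the lines.

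Cdkn1b, the second Cip/Kip inhibitor, stood at 10.1 and 10.4 in PC iPSC 5 and 13, at 12.8 and 11.3 in control iPSC 3 and 7, at 11.4 in ESC and at 22.1 in MEF. Each pluripotent library was below MEF. The level in iPSC was 1.96-fold lower than in MEF (log2 fold change -0.97, SE 0.15, edgeR adjusted p = 0.00125). Of the 5 inhibitors together, Cdkn1a made up 69.2% to 72.1% of the summed RPKM in the iPSC lines, 74.9% in ESC and 56.2% in MEF. Cdkn2a made up 12.7% to 14.5%, 12.4% and 24.0% in the same order.

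Across the members, 5 of 9 were called between iPSC and MEF. Trp53 and Mdm2 were higher and Cdkn1b, Cdkn2a and Cdkn2c were lower, where 68.1% of all 16435 genes tested were called, 36.5% higher and 31.6% lower. The members' share of 55.6% was no larger than this background. Between iPSC and ESC 0 of 9 were called by edgeR, where 10.4% of all genes were called, 4.71% higher and 5.71% lower. At an unadjusted p under 0.05 there were 2 of 9, Mdm2 and Cdkn2b, against 29.8% of all genes, and DESeq2 called 1, Cdkn2b. In counts per library total after TMM scaling, all 4 lines lay on the same side of ESC for 4 of 9 members (65.9% of all genes) and on the same side of MEF for 7 of 9 (88.8% of all genes). At an unadjusted p under 0.05 the comparison with MEF had 5 of 9, against 71.3% of all genes. The comparisons share the iPSC libraries. Between ESC and MEF, 1 library each and not tested, Cdkn1a, Cdkn1b, Cdkn2a, Cdkn2b, Cdkn2c and Ccng1 were higher in MEF, by 1.24-fold for Ccng1 to 4.19-fold for Cdkn2c. Trp53 was 3.18-fold higher in ESC, Mdm2 1.95-fold and Trp53inp1 1.15-fold.

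**Figure D3:**
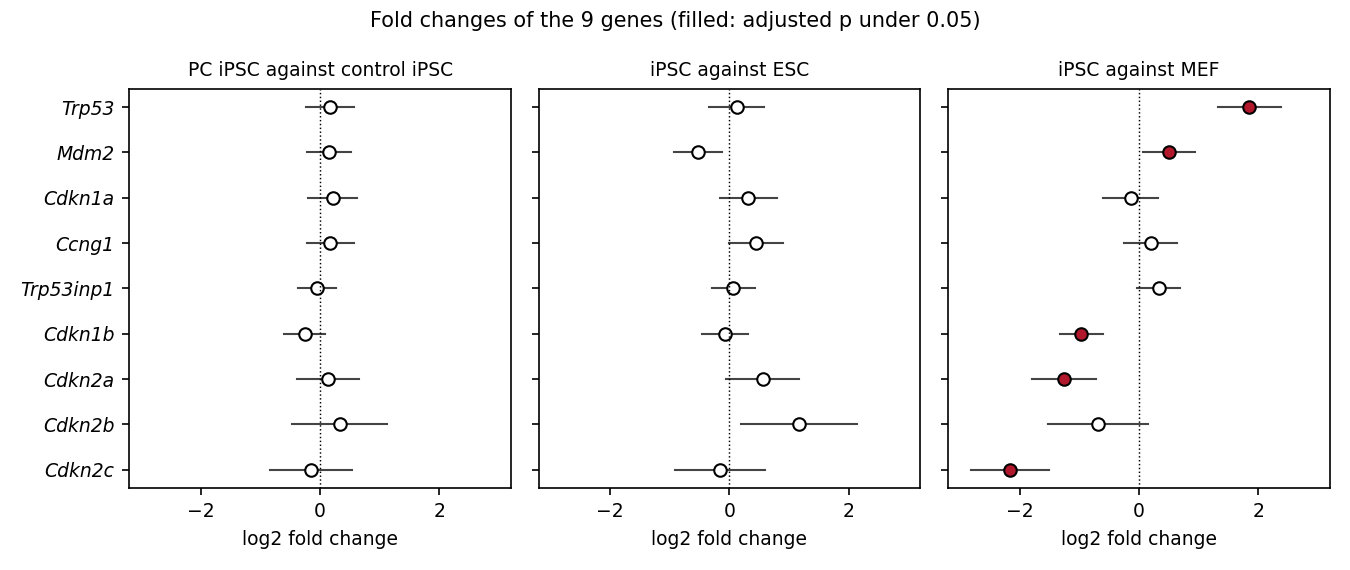
Log2 fold changes of the 9 genes from edgeR, with approximate 95% intervals derived from its test, in 3 comparisons; filled points have an adjusted p under 0.05. No point is filled for PC against control iPSC or for iPSC against ESC, and 5 are filled for iPSC against MEF.

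The study's main comparison, palmitoylcarnitine against control iPSC, showed no called member. edgeR called 0 of 9, as it called 0% of all genes, DESeq2 called 0 of 9, and 0 of 9 had an unadjusted p under 0.05, against 2.34% of all genes. The 2 lines of a group lay clear of the other group for 1 member, Cdkn1b, against 31.5% of all genes. Its levels of 10.1 and 10.4 in PC iPSC were below 12.8 and 11.3 in control iPSC, a log2 difference of -0.26 (SE 0.14, edgeR adjusted p = 0.963). The 95% intervals bound what these lines can show. They ran from 0.847-fold to 1.49-fold for Trp53, from 0.857-fold to 1.44-fold for Mdm2, from 0.867-fold to 1.54-fold for Cdkn1a and from 0.763-fold to 1.58-fold for Cdkn2a. The interval was narrowest for Trp53inp1, from 0.776-fold to 1.2-fold, and widest for Cdkn2b, from 0.726-fold to 2.17-fold. Without control iPSC 7 the Cdkn2b difference was 1.00 with an adjusted p of 0.00866, in a fit that sets the PC lines against control iPSC 3 alone, and without control iPSC 3 it was -0.12.

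PC iPSC 5 had the highest level of 6 members, Trp53, Mdm2, Cdkn1a, Cdkn2a, Cdkn2b and Ccng1. Control iPSC 3 had the lowest level of 4, Cdkn1a, Cdkn2a, Cdkn2b and Ccng1. The shares of all genes highest or lowest in these lines were not counted. Of all pairs of iPSC libraries, PC iPSC 5 and control iPSC 3 differed most (chi-square per gene 62.1). In PC iPSC 5, Trp53 was 1.33-fold and Ccng1 1.23-fold the mean of the remaining lines, and both lie on chromosome 11. Over 1047 genes of that chromosome with a mean of at least 1 RPKM, the median ratio in this line was 1.36-fold (log2 0.45, quartiles 0.30 and 0.59), and medians of the other autosomes ran from -0.05 to 0.05. Relative to the chromosome 11 median, Trp53 was at 0.972-fold and Ccng1 at 0.906-fold. Mdm2, on chromosome 10, was 1.29-fold the mean of the remaining lines in PC iPSC 5.

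In ESC the chromosome 11 median was also above the same 3 lines, at 1.3-fold (log2 0.38, quartiles 0.04 and 0.71). Medians of the other autosomes in ESC were all below those lines, from -0.198 to -0.008 on the log2 scale. Trp53 stood at 0.963-fold and Ccng1 at 0.756-fold in ESC. Of the genes of chromosome 11, 20.2% had a lower ratio there than Trp53 and 9.65% a lower ratio than Ccng1. In PC iPSC 5 these shares were 42.3% and 25.2%. Both genes thus ranked lower among the chromosome's genes in ESC than in the line. The copy number of the chromosome was not measured, and its part in the Trp53 and Ccng1 levels was not tested.

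**Figure D4:**
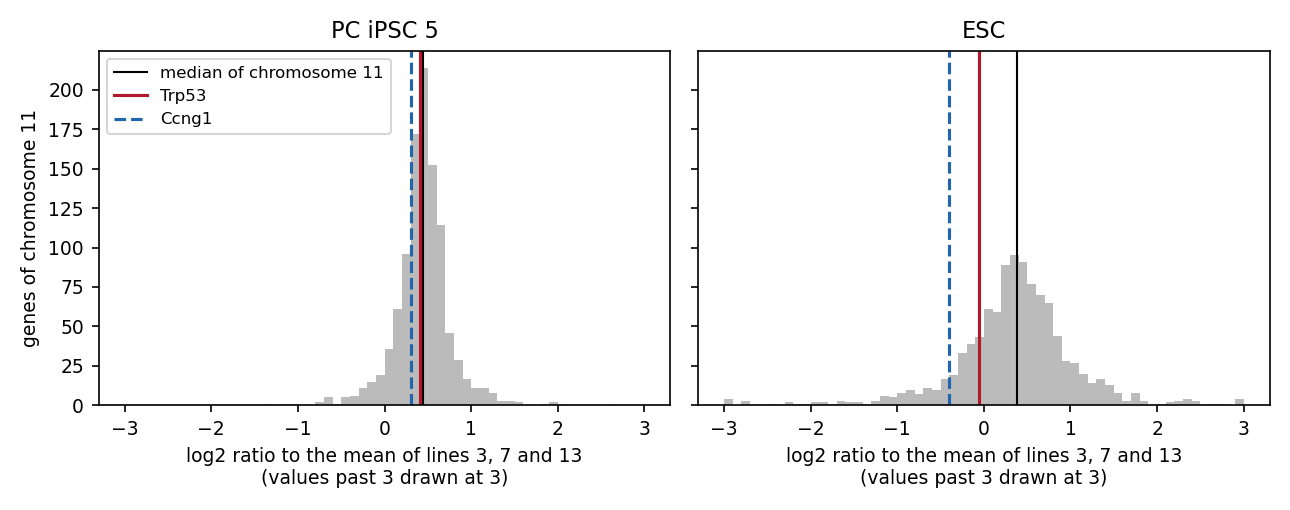
Histograms of the log2 ratio of each chromosome 11 gene to the mean of control iPSC 3, control iPSC 7 and PC iPSC 13, in PC iPSC 5 (left) and ESC (right); lines mark the chromosome median, Trp53 and Ccng1. Trp53 sits at 0.41 beside the median of 0.45 in PC iPSC 5 and at -0.05, below the median of 0.38, in ESC.

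Control iPSC 3, the line with the lowest Cdkn2a and Cdkn2b, also had the lowest fibroblast markers. Of 16 fibroblast markers, 15 were lowest in this line among the 4, Fn1 being the exception, and their summed level was 1178 RPKM there against 1732 to 2040 in the other lines. Cdkn2b was 0.485-fold the mean of the other lines and Cdkn2a 0.721-fold. The part of fibroblast RNA in this was not tested. As a share of the MEF level, Cdkn2a stood at 32.0% to 50% and Cdkn2b at 34.5% to 75.1% in the 4 lines. The fibroblast markers ranged from 0.472% to 0.660% for Dcn, a proteoglycan, over 1.01% to 1.29% for the receptor Pdgfra and 2.72% to 5.59% for Col3a1, to 28.6% to 70.2% for Col1a1 and 38.3% to 70.6% for Fbln2. The feeder cells themselves were not analysed here.

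**Figure D5:**
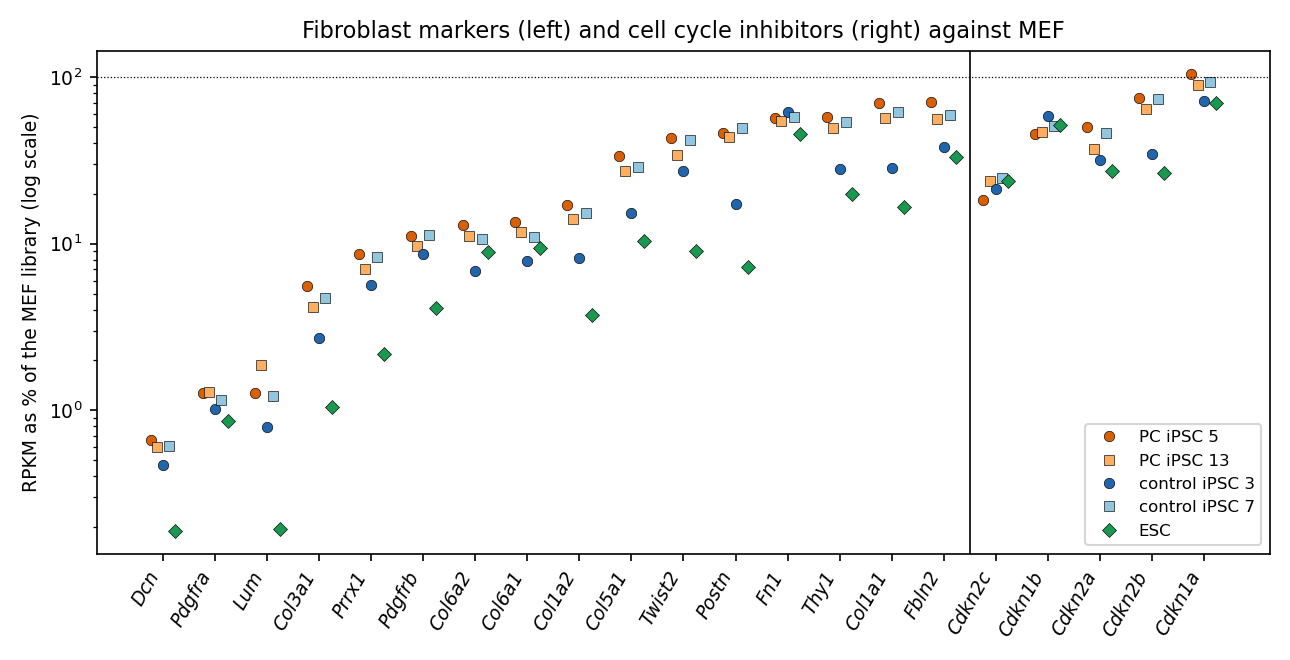
RPKM of 16 fibroblast markers (left of the line) and 5 cell cycle inhibitors (right) as a percent of the MEF library, log axis, 1 point per library. Dcn stands below 1% in the 5 libraries, while Cdkn2a spans 27.2% in ESC to 50% in PC iPSC 5.

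Genes whose levels over the 6 libraries were most like those of a member were sought among 12060 genes with a mean of at least 1 RPKM, by the root mean square difference of log2(RPKM + 1) after centring. The closest to Trp53 was Wdr18 (0.063), to Mdm2 the ubiquitin ligase Rnf167 (0.018), to Cdkn1a the actin crosslinker Actn4 (0.034) and to Cdkn1b Zfp644 (0.031). For Cdkn2a it was Gng10 (0.069), for Cdkn2b the histone gene Hist1h2bc (0.075), for Cdkn2c Kansl1l (0.064), for Ccng1 Ccdc137 (0.048) and for Trp53inp1 Dcaf12 (0.020). Actn4, for example, stood at 220.4 and 198 in PC iPSC 5 and 13, 161 and 201 in control iPSC 3 and 7, 154 in ESC and 218 in MEF. Likeness over 6 libraries is a description and says nothing of shared control.

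Beyond the members, 4 lists of genes around them were counted. List calls are from edgeR alone, and the number of calls against ESC depended on the method. Over all genes edgeR called 1713 there and DESeq2 2352. With limma the calls numbered 11 and 3 at pseudocounts of 1 and 0.1, and 169 after quantile normalization. Of 28 tested p53 regulators and partners, 0 were called higher and 2 lower in iPSC than in ESC (7.14% called, median log2 difference 0.02, where all genes had 10.4% and 0.03). They were Mdm4, the relative of Mdm2 that also restrains p53 (47.0 to 59.3 RPKM in iPSC, 85.7 in ESC, log2 fold change -0.74, SE 0.15, edgeR adjusted p = 0.0332), and the p53 family gene Trp73 (-1.08, SE 0.24). Against MEF, 16 were higher and 3 lower (67.9% called, against 68.1% of all genes). Chek1, the checkpoint kinase, was higher by 4.77 on the log2 scale (SE 0.22) and Aurka, a mitotic kinase, by 5.11 (SE 0.28). Trp73 was also higher, at 1.26 to 1.44 RPKM in iPSC and 0.0142 in MEF, where it had under 3 reads, so no fold is given. The p53 family gene Trp63 was lower, at 0.014 to 0.067 RPKM in iPSC and 1.16 in MEF. The kinase Hipk2 (-1.70) and the acetyltransferase Crebbp (-0.87) were lower.

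Of 47 tested p53 targets, 1 was called higher and 7 lower in iPSC than in ESC (17.0% called, median -0.17, where all genes had 10.4% and 0.03). The leading lower genes were Plk3, a stress-responsive kinase (4.57 to 7.63 RPKM in iPSC, 16.4 in ESC, -1.63, SE 0.21, edgeR adjusted p = 0.0125), the lipid transfer protein gene Pltp (-1.50, SE 0.18) and Lif (-1.27, SE 0.28). Trp53inp2 was the higher one (0.80, SE 0.19, edgeR adjusted p = 0.045). Lif lies on chromosome 11. Its log2 ratio in ESC to the mean of lines 3, 7 and 13 was 1.39, where the chromosome's median was 0.38. The part of the chromosome in the Lif difference was not tested. Against MEF, 25 were higher and 13 lower (80.9% called, median 0.76, where all genes had 68.1% and 0.16). Ckap2, a spindle-associated protein gene, was higher by 3.10 on the log2 scale (SE 0.18) and Sfn by 2.90 (SE 0.22). Igfbp3, which binds insulin-like growth factors (5.37 to 8.42 in iPSC, 838 in MEF), was lower (-6.97, SE 0.21), as were Cd82 (-4.37) and Rprm (-3.69).

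A list of 34 cell cycle genes held cyclins, kinases, Rb and E2F genes, and also inhibitors such as Cdkn1c. It was not confined to the G1 phase. Of the 34, 3 were called higher and 4 lower in iPSC than in ESC. This was 20.6% called with a median of 0.00, where all genes had 10.4% and 0.03. The D-type cyclins Ccnd2 (1.70, SE 0.22, edgeR adjusted p = 0.0125) and Ccnd1 (1.06, SE 0.25) and their kinase Cdk6 (1.33, SE 0.26) were higher. Cdkn1c, the remaining Cip/Kip gene (-1.32, SE 0.29), E2f8 (-1.12) and Ccng2 (-1.10) were lower. Against MEF, 19 were higher and 7 lower (76.5% called, against 68.1% of all genes). Ccna2 (4.28), Cdk1 (3.35) and Cks2 (3.32) were higher, and Ccnd1 (12.1 to 18.8 RPKM in iPSC, 388 in MEF, -4.57), Cdkn1c (-2.76) and Ccnd2 (-2.23) were lower.

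The last list, of 24 genes, held regulators of the Cdkn2a and Cdkn2b locus and its neighbour Mtap. Of the 24, 4 were called higher and 1 lower in iPSC than in ESC. This was 20.8% called with a median of -0.03, where all genes had 10.4% and 0.03. Bmi1, the Polycomb protein known for repressing the locus, stood at 4.64 to 6.32 RPKM in iPSC against 2.19 in ESC and 22.4 in MEF (iPSC against ESC 1.31, SE 0.27, edgeR adjusted p = 0.032). The repressor Tbx3 (1.41, SE 0.17) and the histone demethylase Kdm2b (0.99, SE 0.22) were also higher, and the Polycomb gene Cbx7 was lower (22.2 to 32.1 in iPSC, 54.9 in ESC, -1.10, SE 0.17). Against MEF, 9 were higher and 13 lower (91.7% called, against 68.1% of all genes, 36.5% higher and 31.6% lower), among them Cbx7 (3.76), Tbx3 (3.46) and Suz12 (2.87) higher and Id1 (-2.79), Tbx2 (-2.60) and Ets1 (-2.32) lower. Between PC and control iPSC 0 genes of the 4 lists were called by edgeR. At an unadjusted p under 0.05 there was 1 p53 target and 0 in the other lists, and the medians were -0.10, 0.05, -0.09 and 0.03 in the order of the lists above.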

How the data were processed

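Per the file headers, the deposited table holds uniquely assigned read counts per gene, the total of each library and RPKM values, which the authors scaled by gene length and library total. The counts summed to the totals in the headers. RPKM was recomputed from count, length and total within a relative difference of 2.4e-14, and no count differed from the tables deposited per library. Per the submitters' processing notes, CASAVA 1.8.2 and mm10 were used. An aligner, a counting program, an annotation and any use of strand: not given in the sources used here.

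Counts of all 19330 genes entered edgeR 4.0.16 (R 4.3.3), with TMM scaling, its default filter (16435 genes and all 9 members kept) and a quasi-likelihood test over all 6 libraries as 4 group means. Only the iPSC lines have replicates (2 residual degrees of freedom), so ESC and MEF, 1 library each, are taken to vary as the lines do. Adjusted p-values are Benjamini-Hochberg over all tested genes, called under 0.05. The labels do not say that the lines came from separate cultures, and the p-values reflect the spread among these libraries alone, which may be technical. No pair of iPSC libraries agreed within sampling noise (lowest chi-square per gene 8.44). Alternatives used limma 3.58.1, DESeq2 1.42.0, other scalings and filters, and each iPSC line left out. Named list genes are the up to 3 per direction of largest change among called genes without overlap and with 1 RPKM in the higher group. One gene this rule names is not reported here. The members and lists were chosen with earlier results of these data known. Figures were drawn with matplotlib 3.10.9.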

Additional observations from a re-analysis of the deposited data

How the results depend on the processing

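Between PC and control iPSC, 109 of 117 member values under the alternatives kept their direction and side of the threshold, between iPSC and ESC 111 of 117, and between iPSC and MEF 106 of 117. Leaving out 1 line each gave 0 to 1 members higher for PC against control iPSC (0 to 309 genes in all), 0 to 2 higher and 0 to 1 lower for iPSC against ESC (1781 to 2873 genes in all, against 1713 with all lines, 2873 without control iPSC 3 and 2734 without control iPSC 7), and 1 to 2 higher for iPSC against MEF. The 309 genes, the 1 member (Cdkn2b) among them, came without control iPSC 7. For iPSC against ESC, DESeq2 called 1 member higher, and all genes called numbered 11 and 3 with limma at pseudocounts of 1 and 0.1 and 169 after quantile normalization. DESeq2 called 2352 genes in that comparison. Of the genes called, 45.2% were higher in iPSC by edgeR, 55.3% by DESeq2, 27.3% and 100% with limma in the order of those pseudocounts and 22.5% after quantile normalization. For iPSC against MEF, 1 member (Trp53) in place of 2 was higher with RLE size factors, with a mean RPKM of at least 1, with DESeq2 and after quantile normalization. That last scaling moved the median of all genes by -0.143, so that Mdm2 was at 0.25 and Ccng1 turned to -0.043. Mdm2 lost its call with limma at both pseudocounts too, where Trp53inp1 was called (0.30 and 0.31). Without control iPSC 3 the PC minus control difference turned to -0.10 for Cdkn2a and -0.12 for Cdkn2b. Without PC iPSC 5 it turned in 5 members, and Trp53 against ESC turned to -0.0025. With 1 line left out each, the PC minus control difference ran from -0.030 to 0.34 for Trp53, -0.022 to 0.31 for Mdm2, -0.10 to 0.43 for Cdkn2a, -0.12 to 1.00 for Cdkn2b, -0.39 to 0.06 for Cdkn2c and -0.13 to 0.027 for Trp53inp1, and Trp53 against ESC from -0.0025 to 0.21. The deviations of PC iPSC 5 in Trp53 and Ccng1 became -0.040 and -0.14 relative to chromosome 11. The causes were not tested. No paired analysis was possible because the line numbers of the PC and control groups differ.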
